A study of Mus musculus with 12 samples.

Results

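The effect of Etl4 knockout (KO) on mRNA was compared between OdG and EG1, 2 parental lines of haploid embryonic stem cells (ESCs) of the mouse, androgenetic in both cases. Such cells are derived from embryos with a paternal genome only and carry a single chromosome set. Every library of the series entered the comparison, 12 of 12. The groups were OdG wild type (WT, 2 libraries), OdG Etl4 KO line 1 (2) and line 2 (2), EG1 WT (3) and EG1 Etl4 KO (3), all of C57BL/6 strain. No treatment or time point is given for any group. The labels do not describe the edit in Etl4 or say whether each replicate library had its own culture. The p-values then rest on the spread between libraries alone, which may be technical. EG1 KO stands under a single label, so that any spread between KO lines is not seen in EG1. A trait of those cells cannot then be told apart from an effect of the KO. The contrast was the mean log2 change of the 2 OdG KO lines against OdG WT, minus the log2 change of EG1 KO against EG1 WT. It is called the difference below. A positive value means a change more to the higher side in OdG.

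Etl4 encodes a large coiled-coil protein, and the study's title links its loss to a more stable haploid state in ESCs. Haploid ESCs tend to turn diploid in culture, and naive pluripotency in mouse ESCs rests on factors such as Nanog, Klf5 and Esrrb. Hypoxia-inducible factors switch on glucose transport and glycolysis when oxygen is low or when the factors are not degraded. The transcription factor ATF4 drives the integrated stress response, a programme of amino acid import and synthesis that cells use when amino acids run short or protein folding is disturbed.

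Total counts ran from 16110028 to 19706599 per library, and 14977 of 24421 gene symbols had enough counts to test. The summed level of 8 ESC markers was 4220 to 6860 CPM (counts as a rate per library size, scaled between libraries), with no marker at 0 in any group. The sum of 10 fibroblast markers, which feeder cells would bring, was 20.1 to 55.7 CPM, and Col3a1, Postn and Lum were at 0 in every library of OdG KO line 1 and of EG1 KO. The sum of 6 trophoblast markers was 102 to 135 CPM in OdG and 15.5 to 20.8 in EG1. Cdx2 alone made up 80.1 to 111 CPM of it in OdG and 1.02 to 1.6 in EG1, while Gata3 was lower in OdG (1.57 to 2.84 CPM) than in EG1 (2.99 to 8.83). All OdG changes rest on the same 2 WT libraries, so that the 2 OdG lines are not independent of each other. A trait of the OdG WT cells cannot be told apart from an effect of the KO in OdG either. OdG and EG1 share no library.

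Etl4 itself fell alike in both parental lines. It was at 209 and 204 CPM in OdG WT, 96.2 and 100 in line 1, 108 and 113 in line 2, 267, 267 and 262 in EG1 WT, and 132, 135 and 133 in EG1 KO. The change was log2 -0.99 ± 0.035 (SE) in OdG and -0.99 ± 0.033 in EG1, and the difference was 0.00 ± 0.049 (adjusted p = 0.98). The counts do not show whether the transcripts that were left carry the edit.

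The number of other genes that changed was far from alike. At an adjusted p under 0.05, 27.4% of the genes tested were higher and 29.7% lower in OdG KO as the mean of both lines. The shares were 24.9% higher and 25.1% lower in line 1, and 28.2% and 29.3% in line 2. In EG1 KO only 3.77% were higher and 3.95% lower, 1156 genes in all, of which 64 changed by a log2 of at least 1 (11 higher, 53 lower). These shares are the background for the counts of list members below. The difference between the parental lines was called for 5958 genes, 20.2% of those tested to the higher side in OdG and 19.5% to the lower. Of these, 3426 also differed from EG1 in the same direction in each OdG line taken alone. Both OdG KO lines were also pooled into 1 group of 4, which counts their mutual spread as error. Then 3068 genes remained past the threshold for the difference and 90 for EG1 KO. That spread enters the variance shared by all groups, so that EG1 calls can be lost with unchanged EG1 libraries. The same holds for every EG1 count under this fit below. With the EG1 libraries fitted alone, 1074 genes were called in EG1 KO.

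The genes were then placed in 4 sets. Recurring genes, 654 of 14977 (4.37%), were called in the same direction in line 1, in line 2 and in EG1 KO, 335 higher and 319 lower. OdG-weighted genes, 3791 (25.3%), were called the same way in both OdG lines and for the difference, with a 95% interval of the EG1 change inside a log2 of ± 0.5. EG1-weighted genes, 171 (1.14%), were called in EG1 KO and for the difference, with the interval of each OdG line inside ± 0.5. Opposing genes, 57 (0.381%), were called one way in both OdG lines and the other way in EG1. The sets overlap, because a small EG1 change can still be called: 384 OdG-weighted genes were also recurring, 35 were also opposing, and 3372 were not called in EG1 at all. Of the EG1-weighted genes, 72 were also recurring and 28 were called in neither OdG line.

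Recurring genes made up 56.6% of the genes called in EG1 KO and 12.1% of the 5383 genes called the same way in both OdG lines, which are 35.9% of those tested. Their changes were mostly smaller in EG1. The difference was called for 494 of the 654, with the larger change in OdG for 490 and in EG1 for 4. These 4 were Chac1, Herpud1, the insulin receptor gene Insr (log2 -0.57 in OdG and -1.11 in EG1) and Bphl, for a hydrolase (-0.47 and -1.78), the last pair named after their values were seen. The lower genes had a median log2 of -0.89 in OdG and -0.31 in EG1, and the higher genes 0.42 and 0.16. Across all genes tested the changes in OdG and EG1 had a Pearson r of 0.18, a description over genes that are not independent replicates.

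**Figure D1:**
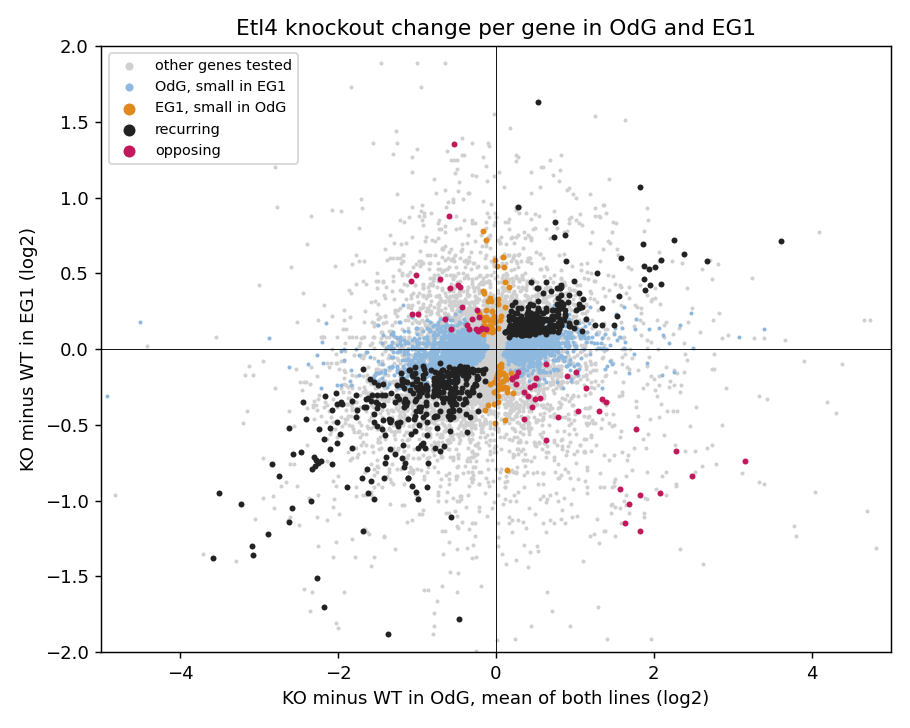
Each point is a gene tested, with its log2 change (KO minus WT) in OdG, as the mean of both lines, on the x axis and in EG1 on the y axis. Recurring genes (black) lie in the lower left and upper right and opposing genes (red) in the upper left and lower right. The axes end at a log2 of 5 and 2, and 33 genes lie outside them.

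Genes of the hypoxia response were the clearest recurring group, and all that were called fell. Of 23 members tested, 23 fell in OdG and 18 in EG1 (29.7% and 3.95% of all genes), 18 were recurring, and for 22 the fall was larger in OdG. The median log2 change of the list was -1.51 in OdG and -0.34 in EG1, beside -0.017 and -0.0011 over all genes. Ndufa4l2, a mitochondrial protein gene known as a target of hypoxia-inducible factors, was at 22.9 and 23.1 CPM in OdG WT, 1.88 and 0.883 in line 1, 2.71 and 2.99 in line 2, 11.6, 10.3 and 10.7 in EG1 WT, and 6.78, 4.99 and 5.08 in EG1 KO. All KO libraries lay below the WT libraries of their parental line, which the rule that named it required. Its log2 change was -3.51 ± 0.14 in OdG and -0.95 ± 0.13 in EG1, with a difference of -2.55 ± 0.20 (adjusted p = 1.4e-11). Egln3, an oxygen-sensing prolyl hydroxylase that marks the factors for degradation, changed by log2 -1.77 in OdG and -0.45 in EG1. Bnip3, which acts in mitophagy, changed by -1.82 and -0.34, and Vegfa, the angiogenic growth factor gene, by -1.10 and -0.14. Adm, Loxl2 and Ndrg1 also fell in both parental lines (log2 -3.08 and -1.36, -2.31 and -0.71, and -1.98 and -0.56). Ddit4 differed, at log2 -1.26 ± 0.048 in OdG and 0.03 ± 0.043 in EG1 (adjusted p = 0.74 in EG1). Egln3, Vegfa and Ddit4 were named after their values were seen. The calls for the difference of Ddit4 and Egln3 were lost with the OdG KO lines pooled (adjusted p = 0.081 and 0.052).

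Glucose transport and glycolysis moved the same way. Of 24 genes, 23 fell in OdG and 14 in EG1, the same 14 were recurring, and the medians were log2 -0.95 and -0.18. Slc2a1, the widely expressed glucose transporter, was at 2750 and 2720 CPM in OdG WT, 887 and 902 in line 1, 846 and 853 in line 2, 625, 596 and 622 in EG1 WT, and 507, 481 and 481 in EG1 KO. It changed by log2 -1.65 ± 0.028 in OdG and -0.33 ± 0.028 in EG1 (difference -1.32 ± 0.040, adjusted p = 1.8e-21). Pgk1, the enzyme that makes the first ATP of glycolysis, changed by log2 -1.17 and -0.21, and Pdk1, the kinase that holds pyruvate out of the mitochondrial cycle, by -1.25 and -0.31. The lactate exporter Slc16a3 changed by log2 -2.17 and -0.31. Ldha and Pkm, the last steps towards lactate, fell in OdG (log2 -0.78 and -0.38) and were at log2 -0.04 and -0.01 in EG1, where neither passed (adjusted p = 0.41 and 0.80). Both were named after their values were seen. Gapdh and Eno1 had few counts for genes of this pathway and have near-identical copies in the genome, so that their values are uncertain. With the OdG KO lines pooled, 4 hypoxia genes and 4 glycolysis genes were still called lower in EG1.

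The 2 WT lines did not start from the same level of these genes, and the KO lines ended closer together. The OdG WT level minus the EG1 WT level had a median log2 of 1.03 over the hypoxia list and 0.70 over the glycolysis list. The same gap between the KO groups was -0.15 and -0.07. Slc2a1 shows it, with a mean of 2740 CPM in OdG WT against 614 in EG1 WT, and of 895 and 849 in the OdG KO lines against 490 in EG1 KO. Such levels set OdG against EG1 across tables, and the parental line and the table cannot be told apart. Over all genes, 100 met the rule for WT levels apart and KO levels alike (a difference of at least a log2 of 1 with the interval of the KO gap inside ± 0.5), and 6 of these were of the hypoxia and 4 of the glycolysis list. The reverse rule, KO apart and WT alike, was met by 26 genes, with Cebpb among them. For Cebpb the OdG WT libraries lay apart, at 5.42 and 12.3 CPM, and line 1 was at 4.95 and 4.67.

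**Figure D2:**
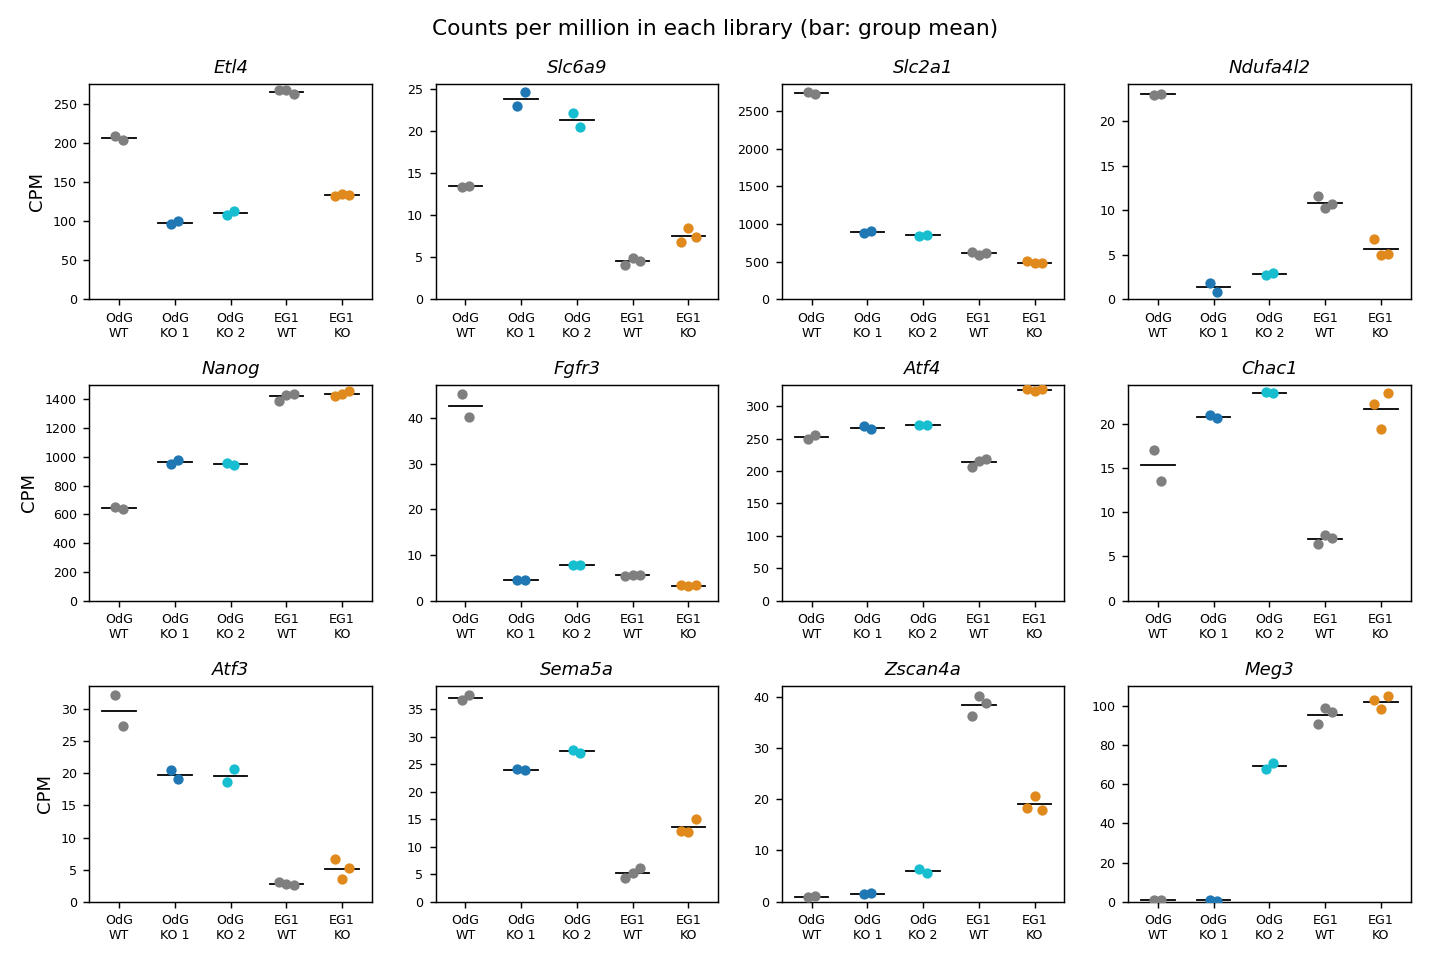
CPM of 12 genes on the y axis, 1 point per library in each of the 5 groups on the x axis, with a bar at the group mean. Etl4 falls alike in OdG and EG1, Slc2a1 falls from a far higher OdG WT level, Chac1 rises most in EG1, and Atf3 and Sema5a move in opposite directions.

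The start regions of the hypoxia genes were searched because their members moved together. Windows of 250 bases before to 50 after each annotated start came from RefSeq (GRCm38.p6), with 11216 of the 14977 genes matched, and 16 of the 23 hypoxia genes. The letters ACGTG, the core bound by hypoxia-inducible factors, stood on either strand in a window of 13 of these 16 (81.2%), of 14 of 23 glycolysis genes (60.9%) and of 28.5% of all matched genes. The share was 37.5% of recurring lower genes and 31.6% of recurring higher genes. CACGTG, which contains ACGTG, stood in 1 of the 16 hypoxia windows (6.25%) against 11.5% of all genes. These are matches of letters and not sites shown to be bound. The hypoxia list was drawn up from genes known for this response, so that its share may reflect that choice and not the KO. Stretches before the start of 4 recurring lower genes follow, 5′ to 3′ on the gene's strand, with ACGTG or its complement in capitals.
Egln3 (chr12:54204065-54204124, minus strand): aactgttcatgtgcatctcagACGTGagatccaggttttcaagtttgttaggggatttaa
Bnip3 (chr7:138909580-138909639, minus strand): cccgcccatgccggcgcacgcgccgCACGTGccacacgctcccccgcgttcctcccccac
Slc2a1 (chr4:119108684-119108743, plus strand): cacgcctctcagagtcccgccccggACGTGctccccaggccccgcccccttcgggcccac
Pgk1 (chrX:106186925-106186984, plus strand): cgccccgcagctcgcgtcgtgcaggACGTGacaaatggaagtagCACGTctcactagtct

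The integrated stress response had more genes called higher in EG1 than any other list. Of 26 members, 19 rose and 0 fell in EG1 KO, against a background of 3.77% of genes higher there, while 13 rose and 10 fell in OdG KO. The medians were log2 0.24 in EG1 and 0.10 in OdG, and the difference was called to the lower side for 15 and to the higher side for 4. This list did not meet the rule for a shifted median, and its members were named after their values were seen, except Atf3, Atf4, Mthfd2 and Psat1. Atf4 encodes the transcription factor at the centre of the response and was at 250 and 256 CPM in OdG WT, 269 and 265 in line 1, 271 and 271 in line 2, 206, 215 and 219 in EG1 WT, and 327, 324 and 326 in EG1 KO. It rose by log2 0.61 ± 0.031 in EG1 and was at 0.09 ± 0.033 in OdG, a difference of -0.52 ± 0.045 (adjusted p = 1.5e-10).

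Chac1, an ATF4-dependent enzyme that breaks down glutathione, was at 6.47, 7.45 and 7.13 CPM in EG1 WT and 22.3, 19.4 and 23.5 in EG1 KO. In OdG it was at 17.1 and 13.6 in WT, 21 and 20.7 in line 1, and 23.6 and 23.5 in line 2. It rose in both, by log2 1.63 ± 0.099 in EG1 and 0.53 ± 0.094 in OdG, with the larger change in EG1 (difference -1.10 ± 0.14, adjusted p = 1.7e-07). Trib3, a pseudokinase that damps the response, rose by log2 0.90 in EG1 and was at 0.29 in OdG (line 1 0.15, line 2 0.42). Herpud1, which acts in the removal of misfolded proteins of the endoplasmic reticulum, rose by 0.94 and 0.28.

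Of the 26, 9 were recurring and higher. Beside Chac1 these were the serine synthesis enzymes Phgdh, Psat1 and Psph, the mitochondrial folate enzyme Mthfd2, Cth for cysteine, Aldh18a1 for proline, and the cationic amino acid transporters Slc7a1 and Slc7a3. For Mthfd2 the change was log2 0.52 ± 0.045 in OdG and 0.40 ± 0.043 in EG1 (difference 0.12, adjusted p = 0.11). For Aldh18a1 it was 0.24 and 0.31 (difference -0.07, adjusted p = 0.35). Slc7a3 rose more in OdG (log2 0.82 against 0.16, difference 0.66). The 10 that fell in OdG included both stress effectors and Pycr1, a gene of amino acid supply. Ddit3, the pro-apoptotic factor CHOP, was at log2 -1.22 ± 0.093 in OdG and 0.18 ± 0.10 in EG1 (adjusted p = 0.33 in EG1), and Vldlr at -1.27 and 0.08. Ppp1r15a, which ends the response by reversing the phosphorylation of eIF2α, was at log2 -0.53 and 0.09. For Ddit3, Vldlr and Ppp1r15a the difference was called (adjusted p at most 1.1e-06). With the EG1 table fitted alone, 19 of the 26 again rose, and with the OdG KO lines pooled in the fit of both tables, 8 did.

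The letters TGATGNAA, the composite element that ATF4 binds with C/EBP partners, stood on either strand in the window of 8 of 23 matched members (34.8%) and of 2.83% of all genes. The share was 6.32% of recurring higher and 3.02% of recurring lower genes. As the list was drawn up from known genes of the response, its share may reflect that choice and not the KO. Stretches of 3 members with different patterns follow, with the element in capitals: Chac1 (higher in both, more in EG1), Asns, the asparagine synthetase (log2 0.14 in EG1, 0.02 in OdG), and Atf3 (opposite directions). Psat1 and Ddit3 had no match in these windows.
Chac1 (chr2:119351024-119351083, plus strand): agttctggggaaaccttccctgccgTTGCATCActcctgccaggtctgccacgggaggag
Asns (chr6:7693210-7693269, minus strand): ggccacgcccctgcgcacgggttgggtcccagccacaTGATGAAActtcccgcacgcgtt
Atf3 (chr1:191183409-191183468, minus strand): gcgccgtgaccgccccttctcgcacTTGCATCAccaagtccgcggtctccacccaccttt

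**Figure D3:**
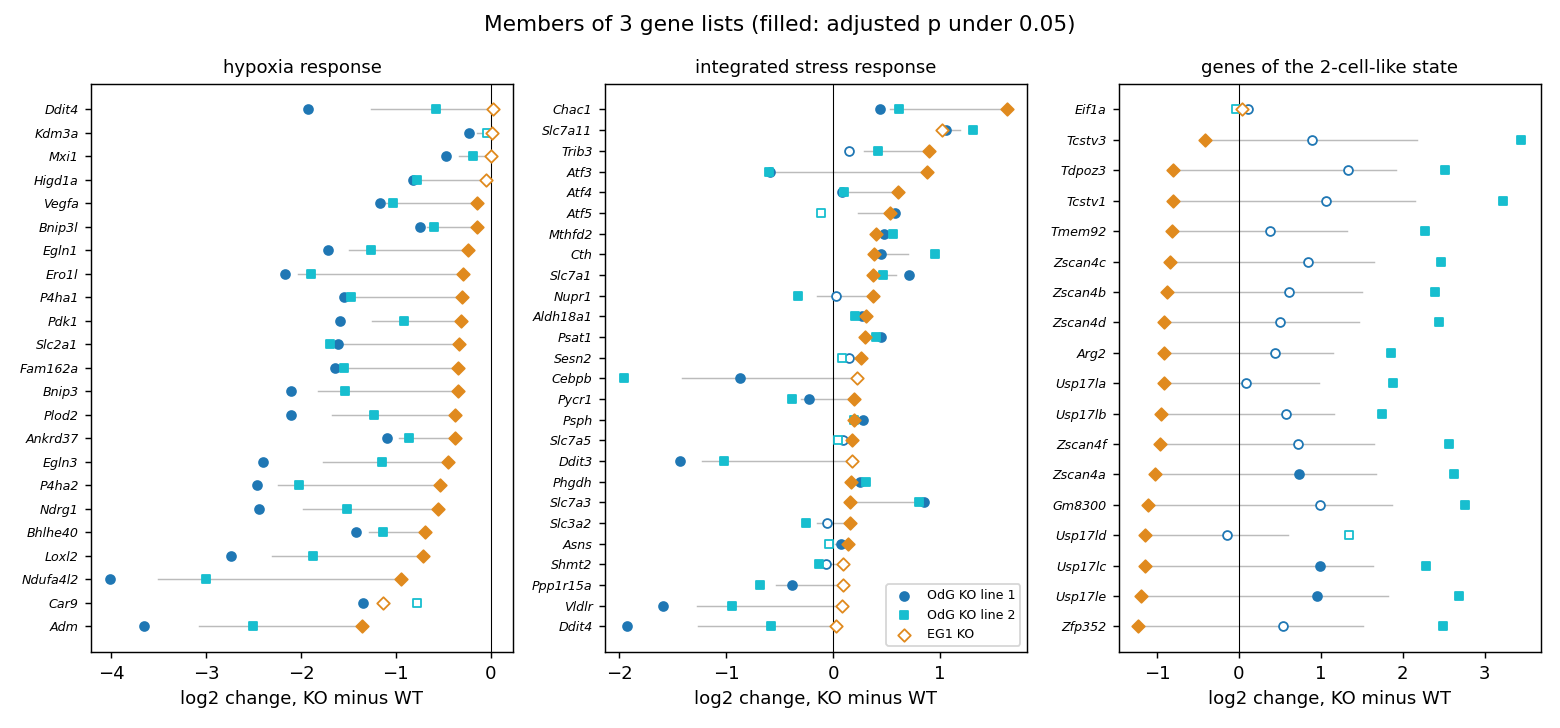
Log2 change (KO minus WT) of each tested member of 3 gene lists, for OdG line 1 (circles), line 2 (squares) and EG1 (diamonds), filled where the adjusted p was under 0.05, with a line from the OdG mean to EG1. Hypoxia genes lie to the left in all 3, most stress response genes lie to the right in EG1, and genes of the 2-cell-like state lie to the left in EG1 and to the right in line 2.

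Serine, folate and purine synthesis genes rose as a wider group, beside 27.4% of all genes tested in OdG and 3.77% in EG1. Of 22, 16 rose and 2 fell in OdG, 8 rose and 0 fell in EG1, and 7 were recurring, with medians of log2 0.31 and 0.07. Impdh1, for guanine nucleotides, rose by log2 0.93 in OdG and 0.15 in EG1. Tdh, the threonine dehydrogenase that mouse ESCs rely on for folate units, was at log2 0.79 ± 0.030 in OdG and 0.01 ± 0.027 in EG1 (adjusted p = 0.94 in EG1). The EG1 count of this list was 5 without EG1 WT replicate 2 and 3 with the OdG KO lines pooled.

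Some actin genes also rose in both. Of 29 genes of the cytoskeleton list, 17 rose and 6 fell in OdG, where 27.4% of all genes tested were higher. In EG1 9 rose and 2 fell, where 3.77% of all genes were higher. Of the list, 7 were recurring higher and 2 recurring lower. It did not meet the rule for a shifted median (log2 0.19 in OdG and 0.10 in EG1). Actb changed by log2 0.44 and 0.14 in OdG and EG1, the actin crosslinker gene Flna by 0.82 and 0.16, and profilin (Pfn1) by 0.33 and 0.15. Anxa2, a membrane-binding annexin, fell by 2.02 and 0.48. These members were named after their values were seen. Without EG1 WT replicate 1, 5 of the list rose in EG1, and with the OdG KO lines pooled 0 rose or fell there.

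Among single recurring genes, the rule on the smallest of the 3 changes named Mid1, Lrp2, Pramel7, Slco2a1, Cd3e and Slc6a9 to the higher side. Slc6a9, a glycine transporter gene, was at 13.4 and 13.5 CPM in OdG WT, 23 and 24.6 in line 1, 22.1 and 20.5 in line 2, 4.08, 4.91 and 4.58 in EG1 WT, and 6.84, 8.48 and 7.42 in EG1 KO. It rose by log2 0.74 ± 0.091 in OdG and 0.74 ± 0.12 in EG1, a difference of 0.00 ± 0.15 (adjusted p = 1.0). Slco2a1, a prostaglandin transporter gene, rose by 0.75 ± 0.065 and 0.84 ± 0.078 (difference -0.08 ± 0.10, adjusted p = 0.56). Of the rises that this rule named, only those of Slc6a9 and Slco2a1 had no call for the difference. Mid1, an X-linked ubiquitin ligase gene, rose by log2 0.97 in line 1, 2.68 in line 2 and 1.07 in EG1, so that its difference (0.76) came from line 2 and was -0.09 (adjusted p = 0.73) with line 1 alone. Lrp2, an endocytic receptor gene, rose by 2.26 in OdG and 0.72 in EG1. Pramel7, from 0.147 CPM in OdG WT to 0.660 in line 1 and 5.18 in line 2, and from 16.3 to 26.8 CPM in EG1, belongs to a family of near-identical copies. Its call for the difference and that of Cd3e were lost with the OdG KO lines pooled (adjusted p = 0.080 and 0.097).

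To the lower side the rule named, beside Etl4 and Ndufa4l2, genes of ion transport and signalling. Cacna1h, a T-type calcium channel gene, was at 16.6 and 14 CPM in OdG WT and at 0.646 to 1.99 in the 4 OdG KO libraries, and at 5.5, 6.27 and 7.23 in EG1 WT and 2.93, 2.46 and 1.93 in EG1 KO. It changed by log2 -3.59 ± 0.17 and -1.38 ± 0.17. Grin1, an NMDA receptor subunit gene, changed by -2.75 and -0.84, and Lbh by -1.59 and -0.87. Of 34 ion channel and pump genes, 20 fell and 3 rose in OdG, 6 fell and 0 rose in EG1, and 6 were recurring. Of all genes tested, 29.7% fell in OdG and 3.95% in EG1. The list holds Cacna1h and Grin1 and was chosen with earlier results of these data known, so that its count is no separate evidence.

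Pluripotency genes were the main group that rose in OdG and little in EG1. Of 16 core pluripotency genes, 14 rose and 1 fell in OdG (median log2 0.49), and 5 rose and 1 fell in EG1 (median 0.04), or 1 and 0 with the OdG KO lines pooled. Of 22 naive genes, 18 rose and 1 fell in OdG, and 1 rose and 0 fell in EG1, with medians of 0.29 and 0.01. Among all genes tested, 27.4% rose in OdG and 3.77% in EG1. Nanog was at 648 and 636 CPM in OdG WT, 948 and 981 in line 1, 957 and 946 in line 2, 1390, 1430 and 1440 in EG1 WT, and 1420, 1440 and 1460 in EG1 KO. All OdG KO libraries lay above OdG WT and below every EG1 library, whose 2 groups overlapped. The log2 change was 0.58 ± 0.028 in OdG and 0.02 ± 0.026 in EG1 (difference 0.56 ± 0.038, adjusted p = 4.7e-13).

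Other naive factors behaved alike. Prdm14, which restrains DNA methylation, was at log2 0.80 in OdG and -0.05 in EG1, Nr0b1 at 0.75 and -0.07, Klf5 at 0.75 and 0.04, and Fbxo15 at 0.76 and -0.07. Foxd3, a transcription factor of early ESC states, was at 7.73 and 7.08 CPM in OdG WT, 28.1 and 30.2 in line 1, 35.7 and 35.3 in line 2, and at 46.1 to 53.7 in the 6 EG1 libraries. Its log2 change was 2.12 ± 0.087 and 0.09 ± 0.054. The core list also held recurring members: Lin28a, an RNA-binding protein of the primed transition, rose by log2 0.99 and 0.45, Utf1 by 1.56 and 0.35, L1td1 by 0.82 and 0.27, and Trim28, a repressor of retroelements, by 0.68 and 0.12. Tdgf1, the Nodal co-receptor, fell by 0.60 and 0.12. The OdG WT level of the core list lay below the EG1 WT level by a median log2 of 0.64, given here as -0.64 for OdG minus EG1, and the KO gap was -0.40.

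FGF signalling genes were another group with an OdG change and little in EG1. Of 19, 14 rose and 4 fell in OdG (27.4% and 29.7% of all genes), and 0 rose and 1 fell in EG1 (3.77% and 3.95%). The rises were in feedback inhibitors and targets of ERK: Spry2 at log2 0.72 in OdG and 0.07 in EG1, Etv4 at 1.78 and 0.20, and cyclin D1 (Ccnd1) at 0.86 and -0.08. The receptor gene Fgfr3 went the other way and was recurring. It was at 45.2 and 40.2 CPM in OdG WT, 4.47 and 4.54 in line 1, 7.9 and 7.82 in line 2, 5.5, 5.65 and 5.7 in EG1 WT, and 3.45, 3.15 and 3.33 in EG1 KO (log2 -2.84 ± 0.086 and -0.76 ± 0.13). Immediate early genes, which growth factor signals switch on within minutes to hours, mostly fell in OdG (10 fell and 2 rose of 16), while 2 fell and 3 rose in EG1. Jun was at log2 -1.02 in OdG and -0.03 in EG1, while Dusp1, a MAP kinase phosphatase gene, fell in both (-0.75 and -0.44).

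Cholesterol synthesis and lysosome genes fell mainly in OdG, where 29.7% of all genes tested were lower, against 3.95% in EG1. Of 24 cholesterol genes, 19 fell and 1 rose in OdG and 7 fell and 0 rose in EG1, with 6 recurring and medians of log2 -0.34 and -0.10. Insig1, a sterol-regulated brake on the pathway, changed by log2 -1.07 and -0.23, and Dhcr7, the last enzyme, by -1.15 and -0.33. The difference was called to the lower side for 15, and for 7 with the OdG KO lines pooled, where 0 were called in EG1. Fatty acid synthesis genes had 11 falls and 4 rises of 17 in OdG and 2 falls and 0 rises in EG1, with the desaturase genes Scd1 (-1.03 and -0.16) and Scd2 (-1.03 and -0.12) recurring.

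Of 28 lysosome and autophagy genes, 22 fell and 1 rose in OdG, and 7 fell and 0 rose in EG1, with medians of log2 -0.39 and -0.08. The hydrolase genes Ctsa (-0.69 and -0.14) and Hexa (-0.59 and -0.17) and the membrane protein gene Lamp2 (-0.51 and -0.21) were recurring. The single member that rose in OdG was Tfeb, the transcription factor that activates lysosome genes, at 42.6 and 40 CPM in OdG WT, 78.7 and 78.6 in line 1, 84.8 and 85.4 in line 2, and 89.1 to 96.3 in EG1 (log2 0.99 ± 0.051 in OdG and 0.03 ± 0.041 in EG1). The letters CACGTG, which TFEB binds, stood in a window of 8 of 22 matched lysosome genes (36.4%) and of 11.5% of all genes. This share may likewise reflect the choice of known lysosome genes and not the KO. The EG1 count of lysosome genes that fell was 3 without EG1 WT replicate 1 or replicate 3 and 2 without EG1 KO replicate 3, and 0 with the OdG KO lines pooled.

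Glycogen genes followed glycolysis, with 12 falls and 1 rise of 16 in OdG and 5 falls and 0 rises in EG1. Of all genes tested, 29.7% fell in OdG and 3.95% in EG1. Pygl, a glycogen phosphorylase, changed by log2 -2.29 and -0.77, and Ppp1r3c, a glycogen-targeting phosphatase subunit, by -1.01 and -0.94 (difference -0.07 ± 0.20, adjusted p = 0.83).

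**Figure D4:**
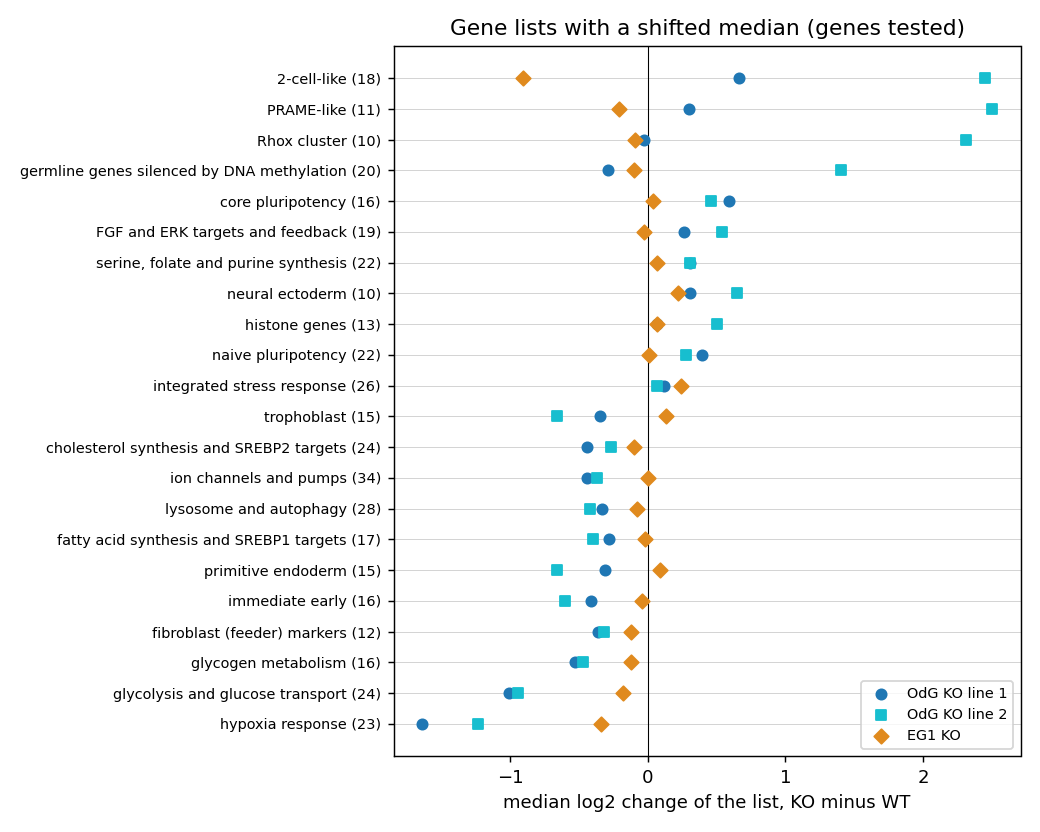
Median log2 change (KO minus WT, x axis) of 22 gene lists (y axis, number of genes tested in brackets) in OdG line 1 (circles), line 2 (squares) and EG1 (diamonds). The lists are the 21 with a median shifted by at least a log2 of 0.3 in OdG, EG1 or the difference, and the integrated stress response. Hypoxia and glycolysis lie lowest in both OdG lines. In EG1 the 2-cell-like list lies lowest, while it is above 0 in both OdG lines.

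The largest OdG-weighted rises were at genes almost silent in OdG WT only. Guf1, a mitochondrial translation factor gene (chromosome 5, 69556910 to 69574652, GRCm38.p6), had 3 and 3 counts in OdG WT and stood at 42 to 47.4 CPM in OdG KO and 33.7 to 41.1 CPM in EG1. Its neighbour Gnpda2 (chromosome 5, 69574998 to 69592332), for a hexosamine enzyme, had 0 and 1 counts in OdG WT, 16.6 to 22.9 CPM in OdG KO and 13.3 to 18.4 CPM in EG1. Tfap2c, a transcription factor gene of germ cells and trophoblast, had 5 and 8 counts in OdG WT. It was at 10.8 and 9.9 CPM in line 1, 114 and 109 in line 2, and 85 to 90.3 in EG1. In each the OdG KO libraries lay nearer to both EG1 groups than the OdG WT libraries did. The next named rises were Pramel6, Foxd3 and Ppp1r1a, a phosphatase inhibitor gene at log2 2.06 in OdG and 0.14 in EG1.

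To the lower side the named OdG-weighted genes were Aire, Espn, Myh7b, Slc16a3, Ero1l and Ppp1r3b. Aire, the regulator of self-antigen expression in the thymus, was at 52.6 and 54.3 CPM in OdG WT, 5.49 and 6.62 in line 1, 13.1 and 12 in line 2, and 24.3 to 28.3 in EG1 (log2 -2.62 ± 0.073 and -0.12 ± 0.066). Myh7b, a myosin heavy chain gene, was at 104 and 98.3 CPM in OdG WT, 20.6 to 25.4 in OdG KO and 18 to 24.4 in EG1 (log2 -2.16 and 0.17). Ero1l, an oxidase of the endoplasmic reticulum that hypoxia induces, changed by -2.03 and -0.29 and was recurring too.

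EG1-weighted rises beside Atf4 and Herpud1 were Wls, Cyr61 and Rhox6. Wls, needed to secrete Wnt proteins, was at 33.2 and 32.3 CPM in OdG WT, 31.4 and 30.1 in line 1, 28.6 and 30.2 in line 2, 10.2, 8.58 and 8.55 in EG1 WT, and 17.2, 12.3 and 15.5 in EG1 KO. It rose by log2 0.72 ± 0.10 in EG1 and was at -0.12 ± 0.081 in OdG. Cyr61, a matricellular target of YAP, was at 24, 26.1 and 29.1 CPM in EG1 WT and 39.7, 40.1 and 40.2 in EG1 KO, and at 61.1 to 66.6 in OdG (log2 0.59 ± 0.063 in EG1 and -0.01 ± 0.056 in OdG). Both genes were lower in EG1 than in OdG in every library.

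EG1-weighted falls were Efhc2, Tex15, Dlgap3, Dhtkd1 and Rragb. Efhc2 had the largest, at 9.3, 9.09 and 9.52 CPM in EG1 WT, 4.88, 5.1 and 6.02 in EG1 KO, and 85.5 to 102 in OdG (log2 -0.80 ± 0.10 in EG1 and 0.14 ± 0.049 in OdG). Tex15, a gene of male meiosis and transposon silencing, was at log2 -0.49 in EG1 and -0.01 in OdG, and Dlgap3, a synaptic scaffold gene, at -0.47 and 0.12. The calls for the difference of Rhox6 (adjusted p = 0.063), Dhtkd1 (0.22) and Rragb (0.14) were lost with the OdG KO lines pooled.

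Genes of the 2-cell-like state, which a small share of ESCs enters for a time, had opposite directions in the 2 parental lines. Of 18, 17 fell and 0 rose in EG1, while 15 rose and 0 fell in the OdG mean. Line 2 carried that rise, with 16 called higher against 3 in line 1, and the medians were log2 0.66 in line 1, 2.45 in line 2 and -0.91 in EG1. Of all genes tested, 28.2% were higher in line 2 and 24.9% in line 1, so that the line 1 count was below its share. Zscan4a, a marker of the state, was at 0.865 and 1.06 CPM in OdG WT, 1.56 and 1.64 in line 1, 6.39 and 5.6 in line 2, 36.2, 40.1 and 38.7 in EG1 WT, and 18.3, 20.7 and 17.9 in EG1 KO. The highest OdG library was thus below the lowest EG1 library. Its log2 change was 1.68 ± 0.24 in OdG and -1.02 ± 0.073 in EG1 (difference 2.69 ± 0.24, adjusted p = 2.3e-10). In counts, OdG WT held only 15 and 18 for Zscan4a.

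The full rule for opposing genes was met by 3 members, Zscan4a, Usp17lc and Usp17le. Members of the Zscan4 and Usp17l families are near-identical, so that reads may be split between copies and single values are uncertain. In the fit with the OdG KO lines pooled 0 of the 18 were called in EG1, and with the EG1 table fitted alone 17 were. In bulk RNA, fewer cells in the state and less RNA per cell cannot be told apart.

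Atf3, a stress-induced transcription factor gene, was the leading opposing gene to the lower side in OdG. It was at 32.1 and 27.4 CPM in OdG WT, 18.6 to 20.6 in the 4 OdG KO libraries, 3.01, 2.71 and 2.6 in EG1 WT, and 6.61, 3.5 and 5.2 in EG1 KO. The change was log2 -0.59 ± 0.099 in OdG and 0.88 ± 0.18 in EG1, a difference of -1.47 ± 0.21 (adjusted p = 9.8e-07). Sema5a, an axon guidance gene, was at 36.7 and 37.6 CPM in OdG WT, 24.2 and 23.9 in line 1, 27.6 and 27.1 in line 2, 4.37, 5.31 and 6.11 in EG1 WT, and 12.8, 12.7 and 15.1 in EG1 KO (log2 -0.53 ± 0.075 and 1.35 ± 0.11). Both genes fell from a high OdG WT level and rose from a low EG1 WT level. The lack of overlap between KO and WT was a condition of the rule that named them.

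Further genes had the same directions. Mlxipl, the glucose-sensing factor ChREBP, was at log2 -1.08 in OdG and 0.45 in EG1, and Id2, a target of BMP signals, at -0.71 and 0.46. Ido2, for tryptophan breakdown, was at -1.01 and 0.49, and Nfix at -0.58 and 0.40. Pycr1, a proline synthesis gene of the stress response list, also opposed, at -0.30 and 0.20, and so did the laminin gene Lama1 (-0.57 and 0.13). With the OdG KO lines pooled the call of Ido2 was lost (adjusted p = 0.066).

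In the other direction, higher in OdG and lower in EG1, the named genes beside Zscan4a were Usp26, Fgf17, Kifc3, Ankrd45 and Arhgef26. Usp26, an X-linked deubiquitinase gene of the testis, was at 14.9 and 12.9 CPM in OdG WT, 21 and 20 in line 1, 109 and 111 in line 2, 52.3, 52.8 and 49 in EG1 WT, and 32.6, 36.1 and 37.7 in EG1 KO. Fgf17, a fibroblast growth factor gene, was at log2 0.78 ± 0.091 in OdG and -0.45 ± 0.077 in EG1, with line 1 (1.04) above line 2 (0.52). Kifc3, a kinesin gene, was at 0.63 and -0.60.

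Several groups that differed between the parental lines did so through line 2. Germline genes silenced by DNA methylation had 14 rises and 1 fall of 20 in the OdG mean and 0 rises and 3 falls in EG1. In line 1 alone there were 3 rises and 8 falls, and in line 2 there were 17 rises and 0 falls. Over all genes tested, 24.9% were higher and 25.1% lower in line 1, and 28.2% and 29.3% in line 2. The germline rises of line 1 were thus below the share of all genes. Brdt, a testis bromodomain gene, was at 6.63 and 6.78 CPM in OdG WT, 7.37 and 6.75 in line 1, 31.8 and 29.7 in line 2, and 5.96 to 7.79 in EG1. Genes of the X-linked Rhox cluster (8 of 10 higher in line 2, 1 in line 1, 1 in EG1) and of the PRAME-like family (8, 3 and 1 of 11, with 4 lower in EG1) had the same layout. These families have near-identical members.

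The imprinted non-coding RNA gene Meg3 gave the sharpest case, and was named after its values were seen. It was at 0.865 and 0.944 CPM in OdG WT, 0.754 and 0.63 in line 1, 67.6 and 70.8 in line 2, 90.6, 99 and 97.1 in EG1 WT, and 103, 98.5 and 105 in EG1 KO. Its neighbour Rian was at 0.461 to 0.708 CPM in OdG WT and line 1, 53 and 56.6 in line 2, and 90.9 to 104 in EG1. Both are known to be expressed from the maternal chromosome, and these cells are labelled androgenetic. The fitted differences (2.85 and 3.20) are means over a line far above OdG WT, though below every EG1 library, and a line slightly below or near OdG WT, and with line 1 alone they were -0.46 and -0.07 (adjusted p = 0.38 and 0.92). In EG1 neither gene was called (adjusted p = 0.21 and 0.41).

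Some lineage markers changed in each parental line. Primitive endoderm genes had 9 falls and 1 rise of 15 in OdG and 0 falls and 4 rises in EG1, where 7.72% of all genes tested were called. Sparc was at log2 -0.55 in OdG and 0.02 in EG1, and the collagen genes Col4a1 and Col4a2 rose in EG1 (0.34 and 0.31) while line 2 was at -1.13 and -1.45 and line 1 at 0.11 and 0.15. Of 15 trophoblast genes 8 fell and 4 rose in OdG and 2 fell and 3 rose in EG1, with Krt19 recurring (-2.10 and -0.66). Of 12 fibroblast markers 7 fell and 0 rose in OdG, and 1 fell and 1 rose in EG1. The summed CPM of the 10 fibroblast markers was 50.2 to 55.7 in OdG WT. It was 38.3 to 39.3 in line 1, 21 to 23.8 in line 2 and 20.1 to 23.3 in EG1. Pdgfrb alone was at 31.4 and 29.2 CPM in OdG WT, 15.2 and 15.2 in line 1, and 9.65 and 7.82 in line 2. Not all markers had this order. Acta2 was higher in line 1 (5.17 and 5.04) than in OdG WT (3.98 and 4.19), and Fbn1 was highest in EG1 (7.28 to 10.49). The part of these markers in the OdG changes was not tested. Of 10 neural genes 4 rose and 2 fell in OdG, and 3 rose and 0 fell in EG1. Over all genes tested, 27.4% were higher and 29.7% lower in OdG, and 3.77% and 3.95% in EG1. The 4 trophoblast rises in OdG were near the share of all genes. The recurring neural genes were Tubb3 (1.95 and 0.42) and Nefm (2.67 and 0.58).

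By chromosome the difference had no large shift. Its median lay between log2 -0.06 (chromosomes 11 and 19) and 0.10 (chromosome X, 584 genes). For chromosome X the median was -0.01 in line 1, 0.09 in line 2 and -0.03 in EG1.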

How the data were processed

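The study sequenced mRNA of 12 ESC libraries. RNA was taken with Trizol and made into libraries with a NEBNext Ultra kit, per the labels' protocols. For read handling, the submitters' processing notes list HISAT2 2.1.0, featureCounts 1.6.4, CASAVA and DESeq2, with mm10 as the build. No annotation or strand setting is named there, so that reads of overlapping genes on opposite strands, or of near-identical copies, cannot be told apart. The values the authors deposited are raw counts (whole numbers) in a table per parental line, joined here by their 24421 shared symbols. Groups and replicate numbers come from the titles. Between replicates, chi-square divided by its degrees of freedom was 1.95 to 4.61, above sampling noise.

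All libraries were fitted in 1 model with a mean per group, by edgeR 4.0.16 (quasi-likelihood test, R 4.3.3), after filterByExpr and TMM scaling, which left 14977 genes. Tests were two-sided, and genes were called at a Benjamini-Hochberg adjusted p under 0.05 over all genes tested. Every adjusted p is from that test unless another fit is named. Intervals are 95%, and values are TMM-scaled CPM and log2 changes with standard errors. The procedure was tested on simulated data. Alternatives were RLE scaling, DESeq2 1.42.0, no filter, the OdG KO lines pooled, a replicate block, a fit of each table, each OdG line alone, a stricter threshold or bound, and leaving out each library. Counts of list members under other fits were added after seeing the data. There were 42 gene lists with 912 genes. The members and lists were chosen with earlier results of these data known. Promoter windows are RefSeq's.

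Genes were named by a rule: Etl4, then genes whose higher group reached 5 CPM and whose KO and WT libraries did not overlap in each contrast called, leaving out clone-style symbols. From the recurring, OdG-weighted and opposing sets it took the 6 largest per direction by the smallest change of the lines called, and from the EG1-weighted set 5 per direction. From each of the 21 lists with a median at least 0.3 (log2) from that of all genes it took up to 4 members by adjusted p of the difference and up to 3 recurring members. Chosen outside it, after their values were seen, were Actb, Aldh18a1, Anxa2, Asns, Bphl, Cebpb, Chac1, Cth, Ddit3, Ddit4, Egln3, Eno1, Flna, Gapdh, Insr, Ldha, Meg3, Pfn1, Phgdh, Pkm, Ppp1r15a, Psph, Pycr1, Rian, Slc7a1, Slc7a3, Trib3, Vegfa and Vldlr. Some genes that the rule names are not reported here.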

Additional observations from a re-analysis of the deposited data

Results flagged for a closer look

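Of 121 genes of the text, the cell type markers of its opening left aside, 106 are listed here. Their KO change differed between OdG and EG1 by edgeR's test of the difference itself (Benjamini-Hochberg adjusted p under 0.05). Genes with a group mean under 0.5 CPM were left out of the 106 even where the difference was called. Guf1, Gnpda2, Tfap2c and Pramel6 are such genes, so that the rest of the 121 are not all genes without a difference. The values in brackets are the log2 change in OdG minus that in EG1. The genes were named partly for this difference, so that their number is no separate evidence.

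Among genes of the hypoxia, glycolysis and glycogen lists, the difference was negative for Ndufa4l2 (-2.55), Slc16a3 (-1.86), Ero1l (-1.75), Adm (-1.72), Ppp1r3b (-1.69), Loxl2 (-1.60), Pygl (-1.52), Bnip3 (-1.48), Ndrg1 (-1.42), Egln3 (-1.32), Slc2a1 (-1.32), Ddit4 (-1.29), Pgk1 (-0.96), Vegfa (-0.96), Pdk1 (-0.94), Ldha (-0.74) and Pkm (-0.37). In the cytoskeleton and ion channel lists, the difference was negative for Cacna1h (-2.21), Grin1 (-1.91) and Anxa2 (-1.54) and it was positive for Pfn1 (0.18), Actb (0.31) and Flna (0.65). Among genes of the FGF and immediate early lists, the difference was negative for Fgfr3 (-2.08), Jun (-0.98), Cyr61 (-0.60) and Dusp1 (-0.31). It was positive for Spry2 (0.65), Ccnd1 (0.94) and Etv4 (1.58). In the integrated stress response, unfolded protein and serine lists, the difference was negative for Cebpb (-1.63), Atf3 (-1.47), Ddit3 (-1.40), Vldlr (-1.34), Chac1 (-1.10), Herpud1 (-0.66), Ppp1r15a (-0.62), Trib3 (-0.61), Atf4 (-0.52), Pycr1 (-0.50) and Asns (-0.12) and it was positive for Psat1 (0.13), Slc7a1 (0.22), Cth (0.32), Slc7a3 (0.66), Impdh1 (0.78) and Tdh (0.78). Among genes of the lineage lists, the difference was negative for Krt19 (-1.44), Id2 (-1.17), Col4a2 (-0.96), Col4a1 (-0.85), Lama1 (-0.70) and Sparc (-0.58) and it was positive for Tubb3 (1.53) and Nefm (2.09). In the cholesterol, fatty acid and lysosome lists, the difference was negative for Scd2 (-0.91), Scd1 (-0.87), Insig1 (-0.84), Dhcr7 (-0.82), Ctsa (-0.55), Hexa (-0.42) and Lamp2 (-0.30) and it was positive for Tfeb (0.95). Among genes of the 2-cell-like, germline, Rhox and imprinted lists, the difference was negative for Rhox6 (-0.54) and it was positive for Brdt (1.31), Zscan4a (2.69), Usp17lc (2.79), Meg3 (2.85), Usp17le (3.03) and Rian (3.20). In the pluripotency lists, the difference was negative for Tdgf1 (-0.47) and it was positive for Lin28a (0.54), L1td1 (0.55), Nanog (0.56), Trim28 (0.56), Klf5 (0.71), Nr0b1 (0.82), Fbxo15 (0.83), Prdm14 (0.85) and Utf1 (1.21). Of genes in none of these lists, it was negative for Aire (-2.51), Myh7b (-2.33), Espn (-1.96), Sema5a (-1.89), Mlxipl (-1.54), Ido2 (-1.49), Nfix (-0.98), Wls (-0.84) and Lbh (-0.72). It was positive for Dhtkd1 (0.26), Rragb (0.27), Tex15 (0.48), Insr (0.54), Dlgap3 (0.59), Mid1 (0.76), Efhc2 (0.94), Cd3e (1.17), Fgf17 (1.23), Kifc3 (1.24), Bphl (1.31), Ankrd45 (1.46), Lrp2 (1.54), Arhgef26 (1.71), Ppp1r1a (1.92), Foxd3 (2.02) and Usp26 (2.31).

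Groups held 2 or 3 libraries, too few for a check of single libraries that stand apart.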

How the results depend on the processing

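With the OdG KO lines pooled, the spread between line 1 and line 2 entered the variance shared by all groups, and 3068 genes were called for the difference, 90 in EG1 KO, 70 recurring, 2405 OdG-weighted, 17 EG1-weighted and 6 opposing. With a separate fit of each table, 1074 genes were called in EG1 KO and 598 were recurring. At an adjusted p under 0.01 the counts were 594 in EG1 KO, 330 recurring, 60 EG1-weighted and 22 opposing. An interval bound of 0.3 gave 43 EG1-weighted genes, 26 with WT apart and 5 with KO apart, and DESeq2 gave 12 with KO apart. With line 1 alone there were 92 opposing genes, 61 with WT apart and 40 with KO apart, and with line 2 alone 217, 168 and 53. The other counts of these sets stayed within 1.5 times. Leaving out each library in turn gave 102 to 173 EG1-weighted genes, 37 to 56 opposing genes and 15 to 32 with KO apart. The lowest values came without EG1 WT replicate 3 for the first 2 and without OdG WT replicate 1 for the last, and the EG1-weighted count also moved without EG1 WT replicate 1 (103), EG1 WT replicate 2 (107) or EG1 KO replicate 3 (112).

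Replicate numbers did not pair the libraries, since same-numbered libraries deviated from their group means with correlations of -0.04 to 0.05. With the replicate number as a block, 5863 genes were called for the difference and 590 were recurring, while genes with WT apart fell to 56 and with KO apart to 15.

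With line 1 alone as OdG KO the difference changed sign and was not called for Mid1 (-0.09), Krt8 (0.01), Piwil2 (-0.01), Rhox13 (-0.33), Meg3 (-0.46), Rian (-0.07) and Atf5 (0.05). The cause of these changes was not tested. Depth limits genes under about 1 CPM, which stood for 16.1 to 19.7 counts.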
